A study of Homo sapiens and Mus musculus with 56 samples.

Results

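SF295 is a human glioblastoma line, and its 4 human arrays (2 of cells given vehicle, 2 of cells given V-4084) were set against the 24 human arrays of the lines U118, U87M2, DBM2 and U251M2. These 28 human arrays are part of a series of 56, the others being mouse arrays of tumours grown from the same lines under the skin of nude mice, which were given vehicle or 30 mg per kg V-4084 for 7 days (SF295 tumours: 2 vehicle, 3 V-4084). The 4 members were chosen by the line named in the title of each array, with no measured value used. Every group of human arrays is labelled as cells treated for 7 days with vehicle, which is DMSO, or with V-4084, a small molecule described in the labels as an inhibitor of the MET kinase. Each other line has 3 arrays with each treatment, and the labels give a V-4084 stock of 0.01 M but no final concentration. Nothing in the labels says that repeats came from separate cultures, so the p-values below measure only the spread between these arrays, which may be technical. SF295 is a single line, and the standard errors hold the spread between arrays within a group, not the spread between lines.

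Values are log2 probe-set intensities, 1 probe set for each of 18417 genes. The difference reported for a gene is its SF295 mean minus the equally weighted mean of the other 4 lines, taken within each treatment and averaged over the 2 treatments. A gene was called where its adjusted p in limma (Benjamini-Hochberg over all 18417 genes) was under 0.05. The files hold no detection flags, so 6.41, the level under which the means of 95% of 361 olfactory receptor genes lay, was taken as a guide to dim probe sets. A fold change against values under this dim level is a ratio of measured intensities, not shown to be above background. Because these are bulk samples, fewer cells of a type and less RNA per cell cannot be told apart.

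AHR, the gene taken as the marker of the line, encodes the aryl hydrocarbon receptor, a ligand-activated transcription factor that moves to the nucleus on binding aromatic compounds or tryptophan metabolites and, with its partner ARNT, switches on genes of xenobiotic metabolism. In glioma it is known as a receptor for kynurenine, the tryptophan product made by TDO2 and IDO1. MET is the receptor tyrosine kinase for hepatocyte growth factor (HGF), and some glioblastoma lines make both the ligand and the receptor.

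Several features of the arrays bear on what follows. For 3 arrays the labels disagree: by title they are DBM2 given V-4084, but other fields of the same labels name SF295, and they were kept with DBM2. Across genes their mean correlation with the other DBM2 arrays was 0.979, 0.936 and 0.981, and with the SF295 arrays 0.910, 0.863 and 0.915. Each of the 28 arrays had an array of its own titled line as its nearest neighbour. V-4084 replicate 2 of SF295 had a narrower range of values than the other SF295 arrays (SD over all probe sets 1.90, against 2.05 to 2.06), as did 1 V-4084 array each of DBM2 (1.75) and U251M2 (1.90). The mean correlation of each SF295 array with the other SF295 arrays ran from 0.966, for that narrow array, to 0.985. The averaged profile of SF295 correlated at 0.920 with U118, 0.929 with U87M2, 0.923 with DBM2 and 0.929 with U251M2, against 0.901 to 0.929 over all pairs of lines. These correlations are across genes of averaged arrays and are given as a description.

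SF295 differed from the other lines in 6423 of 18417 genes (34.9%). Of these, 2942 (16.0%) were higher in SF295 and 3481 (18.9%) were lower, while the median difference over all genes was -0.03. A difference of at least 2-fold was found for 454 genes that were higher (2.47%) and 323 that were lower (1.75%). Against single lines, 6948 genes were called against U118 (37.7%), 7110 against U87M2 (38.6%), 6842 against DBM2 (37.2%) and 7014 against U251M2 (38.1%). Higher in SF295 than in each of the 4 lines singly were 703 genes (3.82%), and lower than in each were 496 (2.69%). All 4 SF295 arrays lay above all 24 others in 399 genes (2.17%), and below all of them in 209 (1.13%). Set against the remaining 4 lines in the same way, but with 6 arrays a line rather than 4, U118 differed in 7969 genes (43.3%), U87M2 in 8771 (47.6%), DBM2 in 8050 (43.7%) and U251M2 in 7936 (43.1%).

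The genes highest in SF295 relative to the other lines encode secreted proteins, membrane proteins and receptors. CP, ceruloplasmin, the copper-carrying ferroxidase of plasma, was at 9.45 and 10.28 on the vehicle arrays of SF295 and at 9.97 and 10.11 on its V-4084 arrays. Its highest value in any other line was 6.85 (U251M2), and in U118, U87M2 and DBM2 it stayed at or below 4.93. The difference was 5.02 (SE 0.14, limma adjusted p = 1.86e-20), or 32.5-fold. AGR2, a protein disulfide isomerase of secretory epithelia, was at 9.55, 9.51, 9.34 and 9.81 in SF295 and between 4.27 and 5.06 on all other arrays, a 29.9-fold difference (4.90, SE 0.11). That all 4 SF295 arrays lay above the rest, whichever the treatment, follows from how these genes were picked.

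SLC38A11, a member of an amino acid transporter family, was at 9.42 to 10.07 in SF295 and at 4.61 to 5.54 elsewhere (25.5-fold). ADGRG7, an adhesion G protein-coupled receptor, was at 8.92 to 9.62 against 4.21 to 5.58 (22.3-fold). FAT2, an atypical cadherin, was at 9.22 to 9.80 against 5.30 to 6.04 (15.8-fold). These genes, like AGR2, were low in each of the other 4 lines rather than in some of them. GPR15, a chemoattractant receptor of T cells, was at 8.28 to 9.0 against 4.08 to 5.41 (15.8-fold). EPGN, epigen, a ligand of the EGF receptor, was at 7.97 to 8.88 against 4.05 to 5.20 (14.8-fold). AOAH, acyloxyacyl hydrolase, an enzyme that inactivates bacterial lipopolysaccharide, was at 8.40 to 8.60 against 4.07 to 5.42 (14.7-fold). TM4SF18, a tetraspan membrane protein, was at 8.85 to 9.68 against 4.84 to 6.26 (14.4-fold). The gap between SF295 and the highest other array was over 2 on the log2 scale for every gene of this paragraph. For these genes and AGR2 all 24 other arrays lay under the dim level, so these folds and their order are against levels not shown to be above background.

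The remaining genes of the 12 highest were shared in part with U87M2. DPP4, a cell-surface dipeptidase (CD26), was at 10.39 and 10.80 on the SF295 vehicle arrays and 10.80 and 11.03 on the V-4084 arrays. U87M2 came next with 8.92 to 9.94, and the other lines lay between 4.59 and 6.10. The difference was 4.40 (SE 0.11) over the mean of the 4 lines but 1.33 over U87M2 alone (limma adjusted p = 4.23e-09). CHI3L1, the secreted lectin YKL-40 and a marker of mesenchymal glioma, was at 11.01, 11.22, 11.34 and 11.21 in SF295, at 8.71 to 9.67 in U87M2 and at 5.79 to 6.97 in the others. Its difference was 4.08 (SE 0.11), and 1.87 over U87M2 alone.

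**Figure D1:**
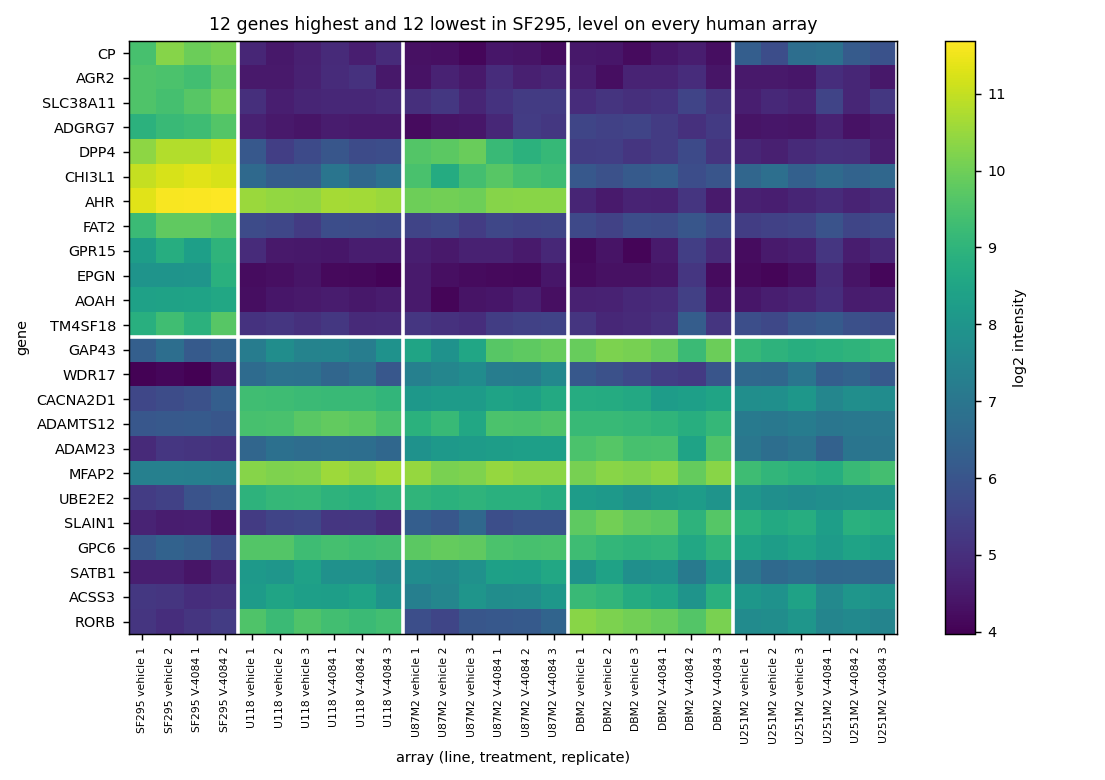
Log2 intensity (colour) of the 12 genes highest and the 12 lowest in SF295 among called genes whose 4 SF295 arrays do not overlap the other 24, by gene (rows) and array (columns, named by line, treatment and replicate). The upper rows are bright only in the leftmost block for most genes, with AHR also bright in U118 and U87M2; the lower rows are dark in the leftmost block.

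The genes lowest in SF295 relative to the other lines were picked among called genes whose SF295 arrays all lay below every other array. They include a nuclear receptor, chromatin and matrix genes and neural genes. LUM, described below, had a larger difference (-3.89) than any of them but was not picked, since its SF295 arrays overlapped U251M2. DCN (-2.68) and EFEMP1 (-2.47) were left out for overlap as well. RORB, a retinoid-related orphan nuclear receptor, was at 5.15, 4.99, 5.16 and 5.34 in SF295. It ran from 5.57 to 6.47 in U87M2, 7.46 to 8.02 in U251M2, 9.22 to 9.57 in U118 and 9.61 to 10.31 in DBM2. The difference was -3.12 (SE 0.10, limma adjusted p = 8.73e-20), 8.67-fold lower, with U87M2 the nearest line. ACSS3, a mitochondrial acyl-CoA synthetase, was at 4.98 to 5.23 in SF295 and at 7.31 to 9.21 in the other lines (8.45-fold lower). SATB1, an organiser of chromatin loops, was at 4.42 to 4.70 against 6.56 to 8.59 (8.37-fold lower). In SF295, 10 of the 12 lowest genes picked in this way were under the dim level on all 4 arrays, the exceptions being MFAP2 and GAP43. ACSS3 and SATB1 lay below the level reached by any other array by more than 1.8 on the log2 scale.

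GPC6, a glypican, was at 5.80 to 6.39 in SF295 and at 8.22 to 9.86 elsewhere (7.81-fold lower). MFAP2, a microfibril protein, was at 7.23 to 7.32 against 8.79 to 10.62 (6.56-fold lower). ADAMTS12, a secreted metalloprotease, was at 6.05 to 6.17 against 7.01 to 9.83 (6.23-fold lower). CACNA2D1, an auxiliary subunit of calcium channels, was at 5.60 to 6.27 against 7.50 to 9.32 (5.99-fold lower). GAP43, a growth cone protein of neurons, was at 6.17 to 6.75 against 7.20 to 10.16 (5.43-fold lower). In all 5 genes the nearest arrays were of another single line, U251M2 for GPC6, MFAP2, ADAMTS12 and CACNA2D1 and U118 for GAP43. SLAIN1, a microtubule-associated protein, was at 4.34 to 4.74 in SF295 and only slightly higher in U118 (4.93 to 5.60), but at 8.29 to 10.05 in DBM2 and U251M2. UBE2E2, a ubiquitin-conjugating enzyme, was at 5.33 and 5.47 with vehicle and 5.96 and 6.13 with V-4084, against 7.72 to 9.15 elsewhere. ADAM23, a catalytically inactive ADAM protein of the nervous system, was 6.50-fold lower and WDR17, a WD-repeat protein, 5.45-fold lower.

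AHR itself was at 11.35 and 11.60 on the SF295 vehicle arrays and 11.65 and 11.69 on the V-4084 arrays. U118 followed with 10.41 to 10.66 and U87M2 with 9.98 to 10.33, while DBM2 (4.52 to 5.16) and U251M2 (4.63 to 4.91) were below the dim level of 6.41. The order of levels was therefore SF295, U118, U87M2, then DBM2 and U251M2, and the arrays of these last lines overlapped. The mean difference of 4.02 (SE 0.08, 16.2-fold, limma adjusted p = 1.94e-23) was made largely by DBM2 (6.83) and U251M2 (6.80). Against U118 it was 1.04 (adjusted p = 7.22e-10) and against U87M2 1.42 (adjusted p = 1.48e-12). AHR is thus the highest in SF295, as its use as a marker requires, but high AHR was shared by 3 of the 5 lines.

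Of the 20 measured members of the AHR pathway list, 10 were higher in SF295, 1 was lower and 9 were not called. The median difference was 0.33 against -0.03 over all genes (background 16.0% higher, 18.9% lower). AHR itself is on the list and among the 10 higher. KYNU, kynureninase, which breaks down kynurenine, was at 8.99, 8.88, 9.04 and 9.08 in SF295 and 4.24 to 9.26 in the other lines, with U87M2 (7.32 to 9.26) overlapping it (difference 2.90, SE 0.13). NQO1, a quinone reductase and a textbook AHR and NRF2 target, was at 10.66, 10.37, 10.45 and 10.46, above all other arrays (8.42 to 10.25), with a difference of 1.27 (SE 0.08). IDO1, which makes kynurenine from tryptophan, was at 5.48 to 6.04 against 3.95 to 4.88, above every other array but under the dim level of 6.41. TDO2, the other enzyme of that step, was at 6.13 to 6.89, higher than in U118, DBM2 and U251M2 (4.63 to 5.71) and below U87M2 (7.44 to 8.54). The textbook AHR target CYP1A1 was named outside the naming rule, after its value was seen. Its mean was 5.57 in SF295 and 5.49 to 5.82 in the other lines (difference -0.05, SE 0.09, limma adjusted p = 0.715). All these means lay under the dim level, so a difference near background cannot be judged. The list median was 0.18 with the vehicle arrays alone, with 8 members higher and 1 lower.

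HGF was at 10.14 and 9.91 in SF295 with vehicle and 10.13 and 10.27 with V-4084. U118 (9.98 to 10.39) overlapped SF295 (difference -0.02, limma adjusted p = 0.926), U87M2 was higher (11.39 to 11.50), and DBM2 (5.17 to 5.50) and U251M2 (5.06 to 5.51) were low. The mean difference of 2.09 (SE 0.08) thus joins a line above SF295, a line overlapping it and a pair of lines far below it. MET was at 10.81 and 10.96 with vehicle and 11.06 and 11.44 with V-4084, above all 24 other arrays (8.64 to 10.74). Its difference was 1.21 (SE 0.11, limma adjusted p = 4.29e-10), and ran from 0.68 against U118 to 2.30 against U251M2. SF295 was thus the line with the highest MET and held high HGF as well.

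Across the 20 measured genes of the HGF-MET list, 8 were higher, 2 lower and 10 not called (median 0.11), with HGF and MET themselves among the 8. The shares over all genes, 16.0% higher and 18.9% lower, are the background for this count and for the main count of every list below. For list counts on vehicle arrays alone, here and in other paragraphs, the shares were 10.7% higher and 13.1% lower. On V-4084 arrays alone they were 14.2% and 17.9%. Fits without a line or without the 3 narrow arrays called 5955 to 7256 genes in all. PLAU, urokinase, a protease that can activate pro-HGF, was at 9.98 to 10.44 in SF295, above U118 and U87M2 (8.05 to 9.67) and overlapping DBM2 and U251M2 (difference 0.48). SPINT1, an inhibitor of HGF activation, was at 6.41 to 6.79, with DBM2 alone well above (8.13 to 8.57; difference -0.58). PLXNB1, a semaphorin receptor that associates with MET, differed by -0.44. With the vehicle arrays alone, 3 list members were higher and 1 lower, and PLAU and PLXNB1 lost their calls; SPINT1 and PLXNB1 lost their calls without DBM2, and PLAU without U87M2.

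**Figure D2:**
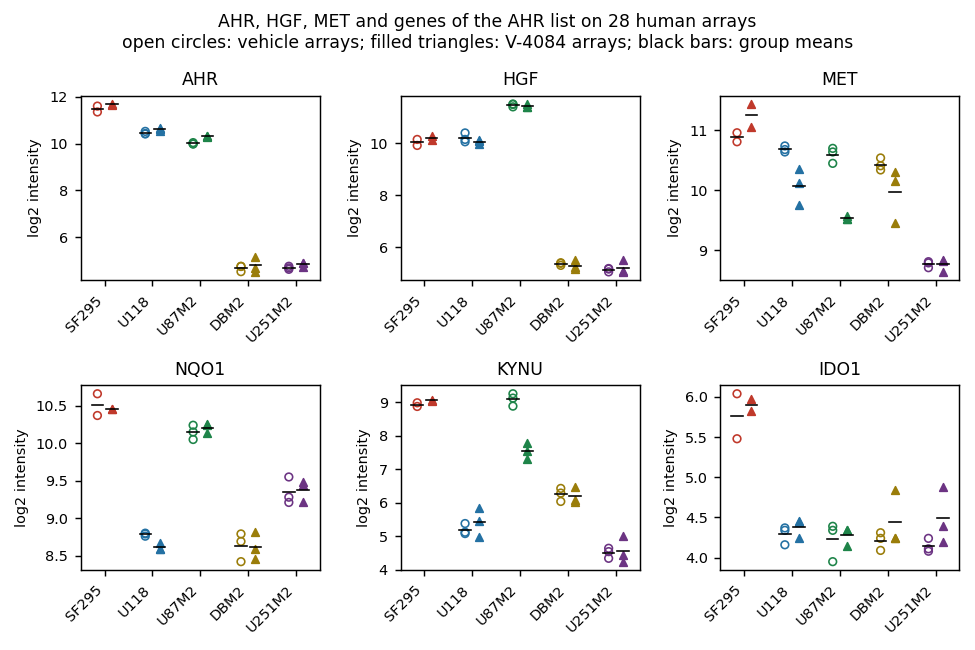
Log2 intensity of AHR, HGF, MET, NQO1, KYNU and IDO1 on each of the 28 human arrays (points) by line, with a black bar for each group mean. SF295 lies highest for AHR, MET, NQO1 and IDO1, overlaps U87M2 for KYNU, and overlaps U118 and lies below U87M2 for HGF.

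Receptor tyrosine kinases other than MET were next compared. Of 35 measured receptors, 8 were higher and 17 lower, with a median of -0.25. EPHA4, an ephrin receptor, was at 6.49 to 6.73 in SF295 and 6.58 to 9.22 in the other lines (difference -1.65, SE 0.10). IGF1R, the receptor of insulin-like growth factors, was at 7.38 to 7.82, near U118 and U87M2 (6.81 to 8.19) and far below DBM2 (10.32 to 11.14) and U251M2 (9.22 to 9.52), for a difference of -1.13. MERTK, a receptor for apoptotic cells, differed by -0.89. PTK7, a pseudokinase of Wnt signalling, was at 8.60 to 8.97, above all other arrays (6.86 to 8.48), and DDR1, a collagen receptor kinase, was at 9.83 to 10.46, overlapping DBM2 (difference -0.03), below U251M2 (-0.39, limma adjusted p = 0.00451) and above U118 and U87M2. The balance was less uneven on vehicle arrays alone, with 8 receptors higher and 11 lower (median -0.13), and without U251M2, with 10 higher and 13 lower (median -0.04).

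Among 32 growth factors, 9 were higher and 11 lower (median -0.03). PDGFD, a ligand of PDGF receptor beta, was at 8.10, 8.53, 8.55 and 8.68 in SF295 against 4.97 to 7.11 elsewhere (5.46-fold). FGF5, a fibroblast growth factor, was at 9.87 to 10.25, above U118 and U87M2 (8.02 to 9.47) and further above DBM2 and U251M2 (5.93 to 7.16). NRG1, neuregulin, was at 8.61 to 9.44, overlapping DBM2 (8.87 to 9.51) and above the rest (5.26 to 7.72). The EGF receptor ligands EREG and TGFA differed by -1.32 and -1.24. EREG was high in DBM2 (10.33 to 10.78) and U87M2 (7.87 to 10.46) and TGFA in U251M2 (8.24 to 9.51) and DBM2 (7.66 to 8.23), while SF295 (6.55 to 6.95 and 5.74 to 6.10) overlapped U251M2 for EREG and U118 and U87M2 for TGFA.

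Feedback regulators and transcription factors that ERK signalling induces were more often lower than higher in SF295. Of 23 measured genes of the MAPK output list, 2 were higher and 13 lower (median -0.31). The number lower fell under some alternatives. Without the 3 narrow arrays 2 were higher and 10 lower (median -0.16), and without DBM2 4 were higher and 9 lower (median -0.19). On vehicle arrays alone 1 was higher and 10 were lower (median -0.25). SPRY2, a feedback inhibitor of receptor signalling, was at 6.12, 6.33, 6.54 and 6.02 in SF295 and at 6.15 to 9.77 in the other lines, with U87M2 overlapping (difference -1.57, SE 0.12). SPRY4 was at 6.40 to 6.61, below every other array (6.98 to 8.93; difference -1.26). Of the PEA3 factors, ETV1 was at 7.44 to 7.78, below every other array (7.80 to 10.37; difference -1.50), while ETV4 differed by -0.88 and ETV5 by -0.74 with overlapping arrays. SPRY2, SPRY4 and ETV1 were each called lower than in each of the 4 lines singly. Of 22 AKT and FOXO genes, 3 were higher and 9 lower (median -0.17). Among them, SESN3, PDK4 and IRS2, which FOXO factors are known to induce, differed by -1.59, -1.34 and -0.95, and INPP4B, a lipid phosphatase, by -1.31. Of these, SESN3 and PDK4 were called lower than in each line singly, PDK4 by -3.60 against U118 but -0.31 against U251M2. IRS2 was called higher than in U118 (0.34) and furthest below DBM2 (-2.54). INPP4B was called higher than in U251M2 (0.41) and lay under the dim level in SF295. TXNIP, a thioredoxin inhibitor on the same list, differed by 0.80 and was not called against U87M2 or U251M2.

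Inflammatory genes were more often higher than lower in SF295. Of 30 measured cytokines, chemokines and related genes, 17 were higher in SF295, 3 lower and 10 not called, with a median of 0.42. CCL2, the monocyte chemoattractant, was at 12.06, 11.83, 12.02 and 12.40, overlapping U251M2 (12.05 to 12.40; difference -0.22, limma adjusted p = 0.112) and above DBM2 (9.66 to 10.13), U118 and U87M2 (7.14 to 8.45). IL6 was at 7.94 and 7.71 with vehicle and 8.47 and 8.08 with V-4084, against 6.76 to 7.94 in U251M2 and 5.00 to 6.84 in the others (difference 1.85, SE 0.15). IL32, a cytokine-like protein, was at 8.63 to 8.90, above every other array (6.52 to 7.62; difference 1.69). TNFRSF11B, osteoprotegerin, was at 7.09 to 7.41, overlapping U251M2 (6.62 to 7.45), and VCAM1, an adhesion molecule for leukocytes, was at 8.60 to 9.48, overlapping U118 (9.03 to 9.50). IL6, IL32 and TNFRSF11B were called higher than in each other line singly, while CCL2 and VCAM1 were not. With the vehicle arrays alone 11 members of the list were called higher and none lower, with a median of 0.25, and with the 3 narrow arrays left out 18 were higher and 2 lower.

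Antigen presentation genes were also mostly higher, with 9 of 14 measured members higher, 1 lower and a median of 0.38. HLA-DPA1, a class II chain that presents peptides to CD4 T cells, was at 11.24, 11.30, 11.22 and 11.29 in SF295. U87M2 was just below (10.62 to 11.21), and DBM2 (7.65 to 8.01), U118 (6.59 to 7.38) and U251M2 (5.27 to 6.36) were far lower. The difference was 3.39 (SE 0.11, 10.5-fold) over the 4 lines and 0.41 over U87M2 (limma adjusted p = 0.0146). Its partner HLA-DPB1 was at 9.49 to 9.89, above every other array (5.13 to 8.45; difference 3.13). HLA-DQA1 (7.98 to 8.11) and HLA-DMA (8.13 to 8.27), which loads peptides onto class II, overlapped U87M2 (7.56 to 8.51 and 7.81 to 8.53), so class II was high in SF295 and U87M2. TAPBP, tapasin of the class I pathway, differed by 0.67. Class I heavy chains and 3 further class II genes were not analysed here, since no probe set that names 1 gene covers them.

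Of 26 measured interferon response genes, 12 were higher and none lower, with 14 not called and a median of 0.28. MX1, an antiviral GTPase, was at 8.40, 8.56, 8.67 and 8.03 in SF295, overlapping DBM2 (7.83 to 8.36) and above U251M2 (6.28 to 6.83), U118 and U87M2 (5.55 to 5.94). MX2 was at 7.47 to 8.11, above all others (4.77 to 7.32; difference 1.59, SE 0.11). GBP2, a guanylate-binding GTPase, differed by 1.52 and OAS2, an activator of RNase L, by 1.50. CXCL10, a T cell chemoattractant, was at 5.32, 5.37, 5.68 and 6.35, above every other array (3.34 to 4.28) but under the dim level. With the 3 narrow arrays left out, 14 were higher and 1 lower.

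To show the sequence in front of these genes, promoters of the called members that hold the core of the interferon-stimulated response element are printed. The core searched was GAAANNGAAA on both strands, in the 250 bases before the gene's start (RefSeq, GRCh38.p14), and matches may overlap each other. Of 26 measured members 20 had a promoter in the table, and 4 of the 9 higher ones (44.4%) and 9 of the 11 not called (81.8%) held a match, against 366 of 14239 promoters in all (2.57%). Matches were thus found both in members called and in members not called, with the larger share in those not called. The called members IFI35, MX1, OAS1, IRF1 and XAF1 had a promoter in the table but no match. A match is a description of letters, not of a site in use. Each sequence is written 5′ to 3′ on the strand of its gene, ends at the base before the gene's start, and has its matches on either strand in capitals.
CXCL10 (chr4:76023498-76023747, minus strand): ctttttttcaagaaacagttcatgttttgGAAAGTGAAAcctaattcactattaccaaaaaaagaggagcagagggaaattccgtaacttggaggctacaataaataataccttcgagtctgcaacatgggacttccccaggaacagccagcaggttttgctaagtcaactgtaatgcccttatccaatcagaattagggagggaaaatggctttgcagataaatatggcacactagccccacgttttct
BST2 (chr19:17405631-17405880, minus strand): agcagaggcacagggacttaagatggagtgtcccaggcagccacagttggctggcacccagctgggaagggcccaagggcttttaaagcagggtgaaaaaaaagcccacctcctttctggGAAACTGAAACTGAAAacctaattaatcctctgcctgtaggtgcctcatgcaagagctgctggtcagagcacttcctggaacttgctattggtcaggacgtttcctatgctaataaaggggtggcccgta
IFIH1 (chr2:162318685-162318934, minus strand): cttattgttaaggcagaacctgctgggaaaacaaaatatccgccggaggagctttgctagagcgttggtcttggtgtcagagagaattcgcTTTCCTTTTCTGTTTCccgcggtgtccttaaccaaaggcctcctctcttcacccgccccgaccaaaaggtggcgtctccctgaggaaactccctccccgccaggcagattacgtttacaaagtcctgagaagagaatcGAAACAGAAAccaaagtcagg
IFI6 (chr1:27672193-27672442, minus strand): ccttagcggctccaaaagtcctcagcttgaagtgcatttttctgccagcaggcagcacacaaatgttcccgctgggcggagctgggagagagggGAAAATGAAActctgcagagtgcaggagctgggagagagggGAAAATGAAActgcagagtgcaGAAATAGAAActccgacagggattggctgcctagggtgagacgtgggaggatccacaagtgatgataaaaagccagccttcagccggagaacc

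BST2, tetherin, had a mean of 8.09 in SF295 and 5.34 (U87M2) to 8.77 (U251M2) in the other lines, with a difference of 1.29 (SE 0.13). IFIH1, the RNA sensor MDA5, differed by 0.81 (SE 0.10), with a mean of 7.12 in SF295 and 7.32 in U251M2, and IFI6, an interferon-induced membrane protein, by 0.61 (SE 0.17). These 3 genes lie outside the naming rule and were named for the sequences above.

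**Figure D3:**
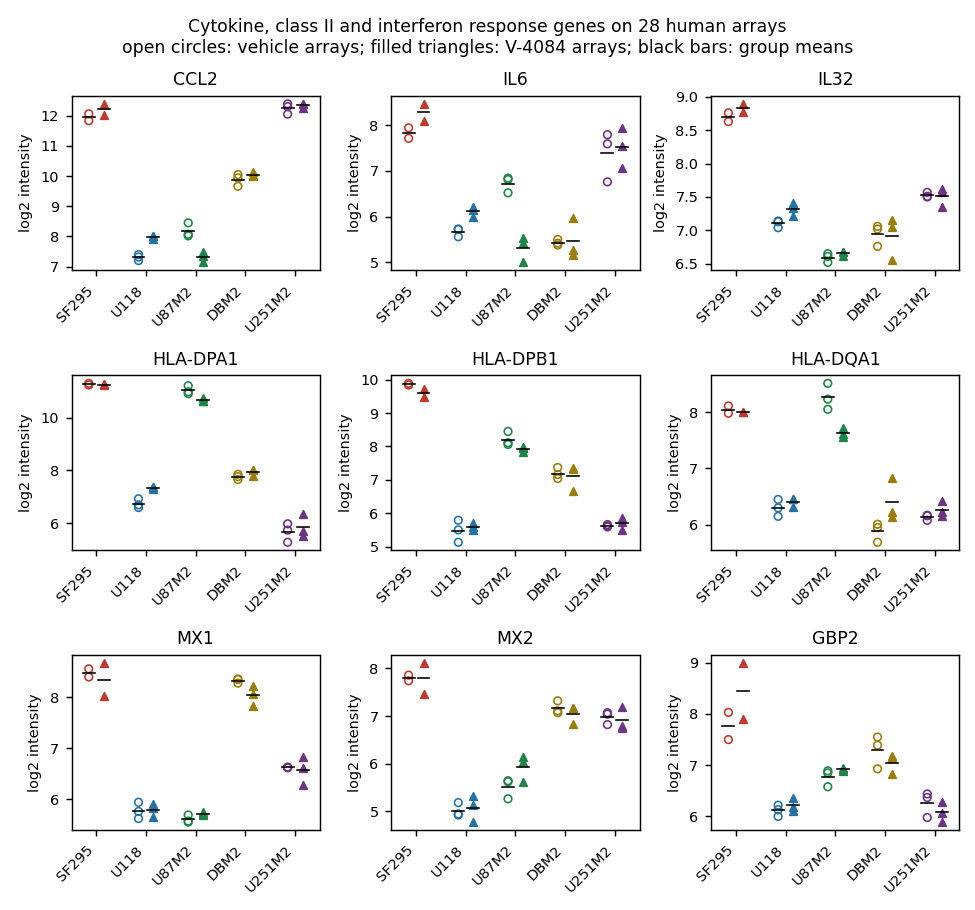
Log2 intensity of 9 cytokine, class II and interferon response genes on each of the 28 human arrays (points) by line, with a black bar for each group mean. SF295 is the highest line for IL32, HLA-DPB1, MX2 and GBP2, with its lowest GBP2 array inside the range of DBM2, overlaps U251M2 for CCL2, and is joined by U87M2 for HLA-DPA1 and HLA-DQA1 and by DBM2 for MX1.

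Genes that the tumour suppressor p53 is known to induce were lower in SF295 or not called. Of 21 measured p53 targets, 12 were lower and none higher, with a median of -0.34. TP53INP1, a stress-induced cofactor of p53, was at 6.53, 6.43, 6.54 and 6.29 in SF295 and at 7.47 to 9.41 on all other arrays (difference -1.65, SE 0.07, 3.13-fold lower). ZMAT3, an RNA-binding p53 target, was at 7.29 to 7.57 against 7.99 to 9.33 (difference -1.34). MDM2, the ubiquitin ligase of p53, was at 8.39 to 8.77 against 8.86 to 10.53 (difference -0.88), and its relative MDM4 differed by -0.57. DDB2, a DNA damage sensor, was at 8.15 to 8.44, overlapping U251M2 (7.99 to 8.57) and below the others (8.99 to 10.74). All 4 SF295 arrays lay below all others for TP53INP1, ZMAT3 and MDM2. The list median was -0.46 on vehicle arrays and -0.27 on V-4084 arrays, where 2 members were higher and 11 lower.

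Cell cycle lists did not move as 1 group. Of 25 G2/M genes, 9 were lower and 1 higher (median -0.20). MKI67, the proliferation marker, was at 8.47 to 8.96 against 8.49 to 10.67 (difference -0.86, SE 0.09), and NUSAP1, KIF11, DLGAP5 and CDK1, which act in mitosis, differed by -0.95, -0.96, -0.73 and -0.48. CDK1 lost its call on the V-4084 arrays alone (-0.20, limma adjusted p = 0.533), without U87M2, and without vehicle replicate 1 or V-4084 replicate 1 of SF295. Of 24 DNA replication genes, 8 were higher and 3 lower (median 0.12): GINS3, CDC45 and GINS2 of the replicative helicase differed by 0.65, 0.62 and 0.57, and the nucleotide synthesis enzymes RRM1 and TYMS by 0.54 and 0.45. With the vehicle arrays alone, where RRM1 and TYMS lost their calls, 3 replication genes were higher and 3 lower (median -0.04), and without DBM2 7 were higher and 6 lower. Among 21 brakes and G1 cyclins, 8 were higher and 6 lower. CCND3, a D-type cyclin, differed by 0.81 and CCNE1 by 0.75, and CDKN1B, the inhibitor p27, by -0.69.

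Transporters and enzymes of drug metabolism included many genes higher in SF295. Of 29 measured members of the DNA repair and drug handling list, 14 were higher and 4 lower (median 0.14). ABCC3, an efflux pump of the MRP family, was at 9.31, 9.79, 9.83 and 9.82, overlapping U251M2 (9.28 to 9.71) and above the rest (5.88 to 7.65; difference 2.23, SE 0.10). ABCC2, another of these pumps, was at 8.61 to 9.08, below U87M2 (9.55 to 9.88) and above the rest (5.58 to 6.13). GSTM3, a glutathione transferase, was at 7.95 to 8.41 against 4.70 to 7.66 (4.34-fold). AKR1B10, an aldo-keto reductase, was at 7.70 and 7.67 with vehicle and 7.01 and 6.41 with V-4084, against 4.75 to 6.21. AKR1C1, of the same enzyme family, differed by 1.54. GSTM3 and AKR1B10 were above every other array, and the efflux pumps were each shared with another line.

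Hypoxia and glycolysis genes were higher in 14 of 28 measured members and lower in 1 (median 0.23). EGLN3, an oxygen-sensing prolyl hydroxylase, was at 9.53 to 10.12, overlapping U251M2 (8.92 to 9.83) and above DBM2 (7.75 to 8.02), U118 and U87M2 (5.88 to 6.83), for a difference of 2.33 (SE 0.12). CA12, a carbonic anhydrase, differed by 1.21 and VEGFA by 0.80, and ALDOC, an aldolase, by -0.70. LDHA, lactate dehydrogenase A, was at 12.22 to 12.38 in SF295 and 11.87 to 12.81 in U118, U87M2 and DBM2, and at 8.02 to 8.38 in U251M2. Its difference of 1.02 was therefore made by U251M2 and was -0.02 without that line. With the vehicle arrays alone, where VEGFA lost its call, 6 list members were higher and 2 lower, and without U118 8 were higher and 2 lower. Of 18 cholesterol synthesis genes, 3 were higher and 2 lower, near the shares over all genes, with differences of 0.49 for SQLE, 0.39 for NSDHL, 0.22 for HMGCS1, -0.35 for FDPS and -0.20 for TM7SF2. On vehicle arrays alone HMGCS1 differed by -0.07, and HMGCS1, SQLE, FDPS and TM7SF2 were not called there; HMGCS1, FDPS and TM7SF2 also lost their calls without the 3 narrow arrays.

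Markers of glial and neural cells, the tissue of origin of a glioblastoma, were mixed in SF295, with some near the dim level. Of 31 measured genes, 8 were higher and 14 lower (median -0.17). GFAP, the astrocyte filament, had a mean of 6.62 in SF295, near the means of U118, U87M2 and DBM2 (6.62 to 6.71), and of 11.48 in U251M2, so that the defining astrocyte marker was near the dim level in 4 of the 5 lines. SOX2, a stem cell factor of glioma, had a mean of 8.41 in SF295, above U118, U87M2 and DBM2 (5.91 to 7.94) and below U251M2 (11.19). GFAP and SOX2 were named outside the rule, after their values were seen. S100B, a glial calcium-binding protein, was at 8.21 to 8.71, near U251M2 (8.76 to 9.12) and above the rest (5.25 to 6.22). L1CAM, a neural adhesion molecule, was at 8.52, 8.79, 8.56 and 7.57 against 5.69 to 6.71 (4.30-fold). PAX6, a neural transcription factor, was at 5.71 to 6.39, below every other array (6.84 to 8.65), and CSPG4, the proteoglycan NG2, was at 5.43 to 6.0, near DBM2 and U251M2 (5.75 to 6.33) and below U118 and U87M2 (7.39 to 9.12). The balance was not stable: without U251M2 12 members were higher and 8 lower, and without the 3 narrow arrays 10 were higher and 10 lower.

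Among 30 mesenchymal glioma genes, 8 were higher and 6 lower (median 0.10), with CHI3L1 first. LOX, lysyl oxidase, which crosslinks collagen, was at 10.79 to 11.47 against 7.99 to 10.04 (3.93-fold). TGFBI, a secreted matrix protein, was at 12.08 to 12.40 against 8.66 to 11.97 (3.01-fold). ZEB2, a repressor of epithelial genes, was at 8.61 to 8.77, below every other array (9.35 to 10.32; difference -1.18), and CCN2, a matricellular protein, differed by -0.79. Of these named genes, CHI3L1, LOX and TGFBI stood above every other array. The balance depended on the arrays: 13 were higher and 7 lower without the 3 narrow arrays, 3 higher and 5 lower on vehicle arrays alone, and 9 higher and 10 lower without U251M2 (median -0.07).

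Matrix genes separated the lines by member rather than as a set. Of 46 other matrix proteins, 14 were higher and 21 lower (median -0.22). LUM, lumican, was at 4.06, 4.37, 4.49 and 5.08 in SF295, overlapping U251M2 (4.33 to 4.70), and at 7.77 to 11.59 in the other lines (difference -3.89, SE 0.13). DCN, decorin, of the same proteoglycan family, was at 4.70 to 5.42, overlapping DBM2 and U251M2 (4.36 to 5.94) and far below U118 (10.83 to 11.15) and U87M2 (7.86 to 10.12). FMOD, fibromodulin, also of that family, went the other way, at 8.56, 9.32, 9.26 and 9.41 against 4.42 to 7.40 (10.2-fold higher). MGP, a calcification inhibitor, was at 10.48 to 10.86 against 5.67 to 9.71 (8.16-fold higher). EFEMP1, a fibulin, was at 5.54 to 6.13, like U118 and U87M2 (5.27 to 5.90), and at 9.54 to 12.19 in DBM2 and U251M2. SF295 thus held little lumican and decorin but the highest fibromodulin of the 5 lines.

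Of 37 collagen chains, 4 were higher and 14 lower (median -0.12). COL6A3 was at 11.65 to 12.18, overlapping U118 and U87M2 (11.48 to 12.11) and far above DBM2 and U251M2 (7.12 to 9.90). COL8A1 differed by 0.93. COL3A1 differed by 0.85 from the mean of the other lines, but was called lower than in U118 (-1.025) and U87M2 (-0.716). COL11A1 and COL12A1 differed by -1.20 and -0.95. COL11A1 was not called against U118 or U87M2, nor COL12A1 against DBM2 (0.001). With the vehicle arrays alone, 5 collagens were higher and 6 lower (median 0.03). COL3A1 lost its call without U251M2. Of 32 matrix proteases and inhibitors, 11 were higher and 12 lower. MMP7, matrilysin, was at 8.44, 8.64, 9.40 and 8.78 against 4.62 to 6.53 (9.31-fold), and MMP13, a collagenase, was at 6.50 and 6.82 with vehicle and 7.45 and 8.06 with V-4084 against 4.60 to 6.48. ADAMTS1, a secreted metalloprotease, was at 5.73 to 6.49 against 7.12 to 9.07 (3.95-fold lower), and PLAT, tissue plasminogen activator, differed by -1.35. MMP7 and ADAMTS1 separated SF295 from every other array, in opposite directions.

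Of 19 integrins, 11 were higher and 3 lower (median 0.32). ITGA11, a collagen receptor, was at 9.09 to 9.52, overlapping U118 (9.07 to 9.75) and above the rest (6.28 to 7.42). ITGB3, of the vitronectin receptor, was at 9.42 to 9.79, overlapping U251M2, and ITGA3, a laminin receptor, at 11.43 to 12.02, overlapping U87M2 and DBM2. ITGA8 and ITGA5, which bind fibronectin and related ligands, differed by 1.27 and 0.91. ITGA8 was called lower than in U118 (-0.69), and ITGA5 was not called against DBM2. Of 20 cadherins, 4 were higher and 5 lower, near the shares over all genes (16.0% and 18.9%). CDH3, P-cadherin, was at 7.55 to 8.0, above every other array (5.74 to 7.28). CDH12 and CDH9 differed by 2.01 and 1.37, with CDH9 under the dim level in SF295 (5.81 to 6.23). CDH6 and CDH10 differed by -1.21 and -0.86. CDH6 was nevertheless called higher than in U118 (0.53) and U87M2 (0.52), and was far below DBM2 (-2.64) and U251M2 (-3.27). CDH10 was not called against U87M2 or U251M2.

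**Figure D4:**
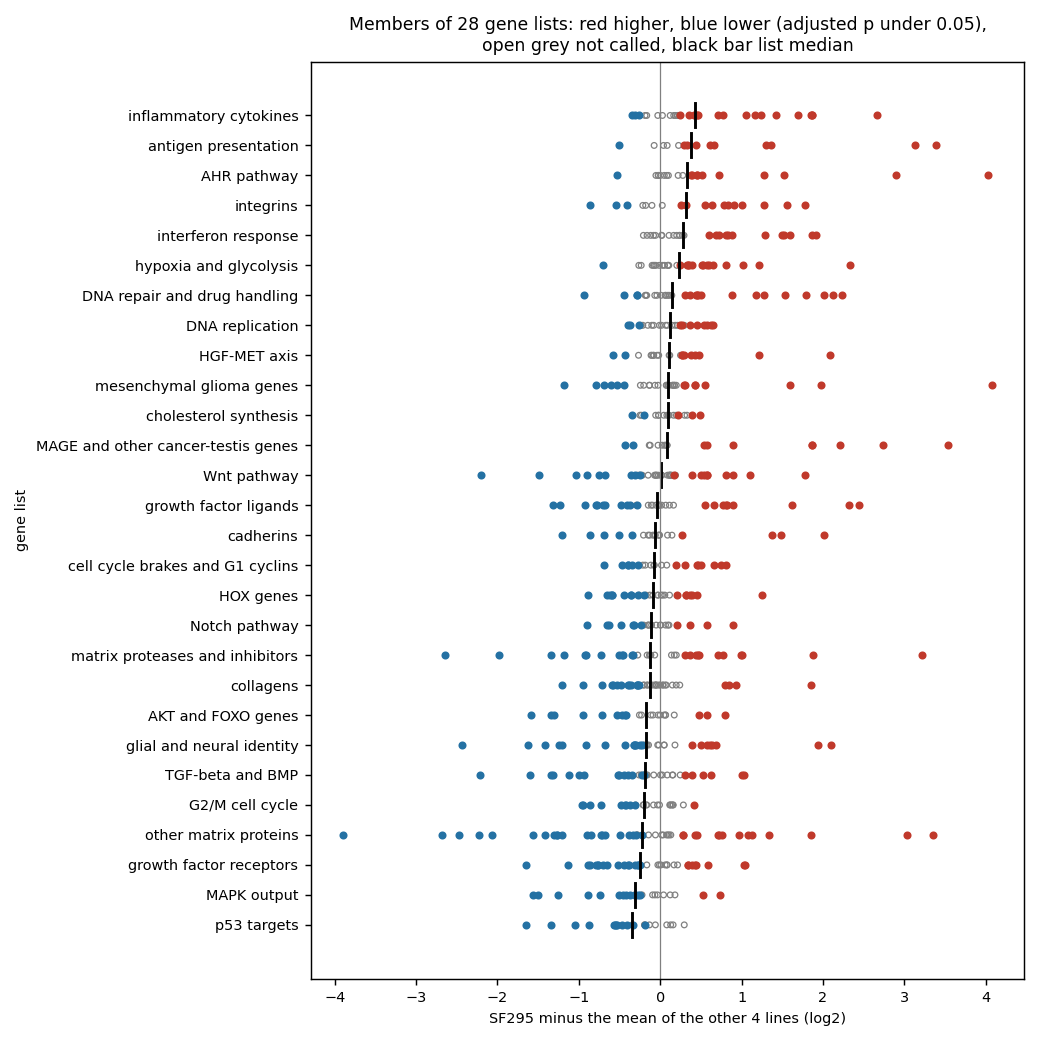
Difference of SF295 from the mean of the other 4 lines (log2, horizontal) for the measured members of 28 gene lists (rows, ordered by median), with red points for genes called higher, blue for lower, open grey for genes not called and a black bar for the list median. Inflammatory cytokines lie at the top (median 0.42) and p53 targets at the bottom (median -0.34).

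Developmental signalling lists were mixed. Of 34 TGF-beta and BMP genes, 6 were higher and 14 lower (median -0.19). BMPR1B, a BMP receptor, was at 5.04 to 5.28, below every other array (5.93 to 7.85), while the antagonists CHRDL1, FST and FSTL3 differed by -2.21, -1.35 and -1.12 and the ligand TGFB3 by -1.31. Of 40 Wnt genes, 10 were higher and 9 lower (median 0.01). FZD6, a Wnt receptor, was at 5.84 to 5.97, below every other array (6.10 to 9.41; difference -2.20). DKK1, a secreted Wnt antagonist, was at 10.13 to 10.52, near DBM2 and U251M2 (10.45 to 11.77) and above U118 and U87M2 (5.32 to 7.25). SFRP1 and DKK2, further antagonists, differed by -1.49 and -1.03, and the ligand WNT5A by 1.10. Of 22 Notch genes, 4 were higher and 7 lower. HES1, a Notch target, differed by 0.90 and DLL3, an inhibitory ligand, by 0.57, and HEY2, NOTCH3 and NOTCH1 by -0.89, -0.65 and -0.63. The NOTCH3 difference came from U87M2 (9.19 to 10.07) and lost its call without that line.

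HOX genes, which record position along the body axis, were higher in 7 and lower in 10 of 27 measured members. HOXC10 was at 7.54 to 7.69, overlapping U251M2 (7.60 to 7.99) and above the rest (5.17 to 7.10), and HOXB8, HOXD10, HOXD8 and HOXD9 differed by -0.88, -0.66, -0.61 and -0.60. The HOXB8 difference came from DBM2 (9.23 to 9.69) and lost its call without that line. HOXD10 lost its call without U87M2 and without U251M2. The number called higher was 2 or 3 on vehicle arrays alone, on V-4084 arrays alone, or without U118 or U87M2. Cancer-testis genes, which are normally silent outside the germ line, were higher in 8 of 18 measured members and lower in 2. SSX1 was at 10.25 to 10.55, overlapping U118 (9.78 to 10.38) and above the rest (4.94 to 7.50; 11.6-fold over the mean). MAGEC2 was at 7.75 to 8.11 against 4.19 to 7.21 and PAGE1 at 7.25 to 7.80 against 4.92 to 5.69, and PAGE5 and PAGE2 each differed by 1.87 or 1.86. MAGEC2, PAGE1, PAGE5 and PAGE2 stood above every other array, and PAGE2 was near the dim level (5.69 to 6.55). Members of this family resemble each other in sequence, so the signal of single probe sets may be shared between them.

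Markers of cell types other than the tumour line were measured on the same arrays. KRT5, a keratin of basal epithelial cells, was at 8.29, 8.61, 8.44 and 7.89 in SF295 and at 5.37 to 6.57 elsewhere (5.44-fold), and KRT15 differed by 0.57. Of 9 keratinocyte markers, 3 were higher and 1 lower, and their summed level was 54.6 to 56.0 in SF295 against 49.5 to 54.8. Of 15 macrophage markers, 5 were higher and 1 lower, with a summed level of 92.5 to 94.5 against 87.9 to 93.3. Among these, CSF1R was at 7.00 to 7.33 against 6.33 to 7.06, and PTPRC, the common leukocyte antigen, at 5.24 to 5.64, MSR1 at 5.09 to 5.48 and CD14 at 5.21 to 6.36, all under the dim level. CD68, a lysosomal protein also made by other cells, was at 9.81 to 10.15 and its difference of 0.31 became -0.04 without U251M2. Of the 15 markers 5 were above the dim level in SF295 (CD68, CSF1R, TYROBP, C1QB and C1QC), and PTPRC, MSR1 and CD14 were among those that were not. The part of macrophage RNA in the inflammatory and class II results was not tested.

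None of 11 lymphocyte markers was called (CD79A, CD3E, CD2, NKG7 and PRF1 differed by -0.13 to 0.12), and their summed level was 64.3 to 65.5 against 63.1 to 70.0. None of 5 erythroid markers was called (26.4 to 27.7 against 26.5 to 29.7, with EPB42, AHSP, HBB, ALAS2 and SLC4A1 at -0.23 to -0.01). Of 11 pericyte markers, 7 were lower and none higher (70.6 to 74.1, inside the range of the other arrays), with ABCC9 at -1.24, ACTA2 at -0.69 and CNN1 at -0.45. ACTA2 lost its call without U87M2, and the number lower was then 3. Of 13 fibroblast markers, 6 were higher and 5 lower (104.4 to 106.7 against 93.0 to 129.7). FAP, a fibroblast protease, was at 9.19 to 9.53, overlapping U118 and U87M2 (8.79 to 9.66), THY1 differed by 1.37, and OGN by -1.30. Of 13 endothelial markers, 1 was higher and 2 lower (76.6 to 79.8 against 75.3 to 82.8), with TEK and EMCN at -0.76 and -0.74 and FLT1 at 0.34.

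Of 15 skeletal muscle markers, 2 were lower and none higher (88.5 to 92.5 against 88.0 to 103.8). TTN, titin, was at 5.28 to 5.39 in SF295, near U87M2, DBM2 and U251M2 (5.08 to 6.06), and at 8.06 to 9.49 in U118, so its difference of -0.88 was made by U118, and ENO3, muscle enolase, differed by -0.50. Of 11 adipocyte markers, 1 was higher and 3 lower (66.0 to 67.0 against 66.6 to 72.9), with FABP4, PPARG and RETN at -0.84, -0.53 and -0.34 and LPL at 0.42. Of 4 Schwann cell markers, S100B was higher and PRX lower (-0.27), with a summed level of 26.7 to 27.4 against 23.5 to 28.2. DSP and DSG1, desmosome genes of the keratinocyte list, differed by -0.42 and 0.30.

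To see whether neighbouring genes differed together, genes were ordered along chromosomes by RefSeq (GRCh38.p14) and the median difference of each run of 11 neighbours was taken. Over 18138 runs the median was -0.03, and all but the lowest and the highest percent lay between -0.41 and 0.38. The highest run, FAP to SCN2A on chromosome 2, had a median of 0.88, with 7 genes higher and 2 lower, and held FAP, IFIH1 and SLC38A11. Its median was 0.18 against U87M2 and 0.905 to 0.973 against the other lines. The run from IFNA2 to ELAVL2 on chromosome 9, which holds CDKN2A, had a median of 0.66. That median was 1.39 against U118 and 1.29 against U87M2, but -0.20 against DBM2 and -0.01 against U251M2. Within it MTAP, which salvages methylthioadenosine and is often lost with CDKN2A in glioma, was at 6.99, 7.02, 7.17 and 7.43 in SF295. MTAP was at 6.96 to 7.19 in DBM2 and 7.63 to 7.92 in U251M2, and at 5.23 to 5.89 in U118 and U87M2. SF295 therefore sat with the lines of higher MTAP.

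The run SH3BGR to MX1 on chromosome 21, which ends in MX2 and MX1, had a median of 0.62, as did TMEM92 to SPATA20 on chromosome 17. The lowest run, MYF6 to ALX1 on chromosome 12, had a median of -1.10, held ACSS3, and had 7 genes lower and none higher. It was followed by BLOC1S6 to EID1 on chromosome 15 (-0.68, 9 lower) and ANKDD1B to PDE8B on chromosome 5 (-0.63, 6 lower and 3 higher). The chromosome 5 run had a median of 0.05 against U118, -0.20 against U87M2, -0.37 against DBM2 and -0.59 against U251M2. Next came ADAM29 to DCTD on chromosome 4 (-0.62, 7 lower), which holds WDR17. Whether these runs reflect DNA copy number was not tested.

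The line difference was also taken within each treatment. Across the 18417 genes the line difference on vehicle arrays and that on V-4084 arrays correlated at r = 0.782, given as a description across genes. Taken alone, the vehicle arrays gave 4390 called genes (23.8%) and the V-4084 arrays 5908 (32.1%). AHR differed by 4.02 on vehicle and 4.03 on V-4084 arrays, CHI3L1 by 4.09 and 4.07, and HGF by 1.99 and 2.20. MET differed by 0.76 on vehicle and 1.66 on V-4084 arrays. This change of 0.90 (SE 0.21) was not called (limma adjusted p = 0.0896). It was called under 6 of the alternatives that kept both treatments. Among these were the fits without the 3 arrays whose labels disagree (1.03, adjusted p = 0.000724) and without V-4084 replicate 1 of SF295 (1.09). Within SF295 MET differed by 0.37 between treatments, so the rest of the 0.90 lay in the other lines.

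The line difference changed with V-4084 in 3 genes (0.0163%), upwards in 2 (0.0109%) and downwards in 1 (0.00543%), while 3579 had an unadjusted p under 0.05. This number moved with single arrays and lines: it was 3159 without V-4084 replicate 1 of SF295, 927 without the 3 arrays whose labels disagree, 103 without DBM2, and 0 without SF295 vehicle replicate 1, SF295 V-4084 replicate 2 or U87M2, among others. NT5E, the ectonucleotidase CD73, was at 7.93 and 8.13 with vehicle and 8.44 and 8.38 with V-4084 in SF295. Its line difference went from -1.46 to -0.40, a change of 1.06 (SE 0.18, limma adjusted p = 0.0367). TCEAL2, a transcription elongation factor-like protein, was at 6.64 and 6.56 with vehicle and 6.10 and 5.83 with V-4084. Its line difference went from 0.51 to -0.48 (SE 0.18, limma adjusted p = 0.0367). For both genes the SF295 arrays moved by less than the line difference did, the rest lying in the other lines. Without either vehicle array of SF295, or without its V-4084 replicate 2, neither gene passed (adjusted p from 0.0721 to 0.556). The third gene falls outside the naming rule as a pseudogene. MPHOSPH10, JPH4 and FJX1 came next, with changes of 0.85, -0.85 and 1.83 and an adjusted p of 0.0766 each.

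Between V-4084 and vehicle within SF295 itself, no gene passed in limma (0 of 18417, 0%); the smallest adjusted p was 0.217, and 1581 genes had an unadjusted p under 0.05. The genes of smallest p were ANXA10, an annexin, at 6.27 and 6.01 with vehicle and 5.48 and 5.39 with V-4084 (difference -0.71, SE 0.14), PI15, a protease inhibitor (0.81), CLDN1, a tight junction protein (0.96), UBE2E2 (0.65) and MMP13 (1.10). MET differed by 0.37 (SE 0.20), HGF by 0.17 (SE 0.15) and AHR by 0.20 (SE 0.15), with adjusted p values of 0.605, 0.745 and 0.710. The number called depended on which V-4084 array was kept. V-4084 replicate 2 differed from the vehicle mean by at least 2-fold in 257 genes, replicate 1 in 4, and the vehicle arrays from each other in 14. Without replicate 1, so that the narrow array stood alone for V-4084 and was taken to vary like the other groups, 1918 genes were called, 518 higher and 1400 lower. Without the narrow array 0 were called, with 268 at an unadjusted p under 0.05.

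**Figure D5:**
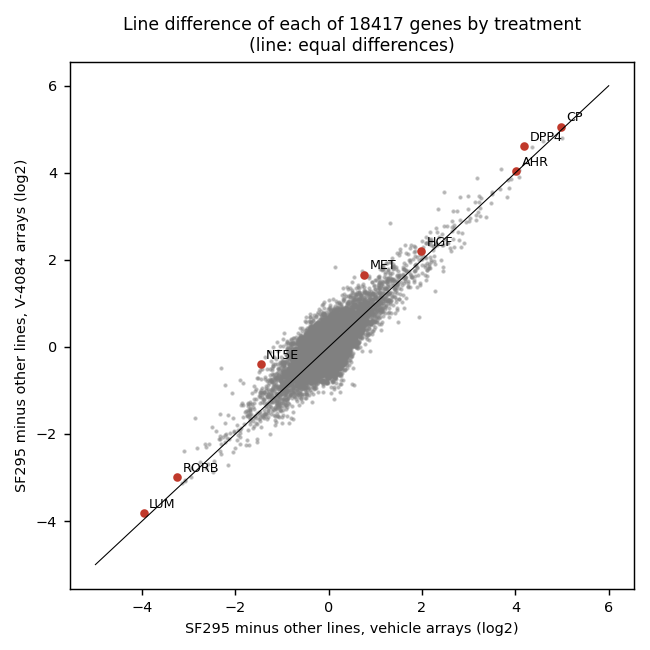
Difference of SF295 from the mean of the other 4 lines for each of 18417 genes (points), on vehicle arrays (horizontal, log2) and V-4084 arrays (vertical, log2), with equal differences on the black line and named genes in red. AHR lies on the line (4.02 and 4.03), while MET (0.76 and 1.66) and NT5E (-1.46 and -0.40) lie above it.

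The mouse arrays carry mouse probe sets and hold SF295 tumours (5 arrays, against 23 of the other lines). On them 10 of the 12 highest genes named from the human arrays were measured, with differences from -0.14 to 0.58 (median 0.03). Of the 12 lowest, 12 were measured, with differences from -1.18 to 0.08 (median -0.44). For 3 of them every SF295 tumour lay below every other tumour. The SF295 mouse arrays also had low medians over all probe sets (6.11 to 6.17, against 6.15 to 6.31 on the others). This count and these differences are given without the share or median over all mouse genes. Whether human tumour RNA bound the mouse probe sets was not tested, so these values cannot be assigned to mouse RNA alone. RORB had the same order of lines on both platforms, with 7.49 in DBM2, 7.24 in U118, 6.73 in U251M2 and 6.30 in U87M2 on mouse arrays. ADAM23 did not, being highest in U251M2 (7.10) on mouse arrays and in DBM2 (9.34) on human arrays.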

How the data were processed

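Human arrays (28) and mouse arrays (28) were used as the authors deposited them: log2 probe-set intensities made with RMA and Partek, per the submitters' processing notes, with versions not given in the sources used here. The labels state 200 ng of RNA per array. Of 33297 human probe sets, 19460 name 1 gene, 1754 several and 12083 none. Only the first were used, 19429 of them matching RefSeq symbols, and the brightest of each gene's probe sets was kept (18417 genes). Arrays have no read depth, and their number limits the precision; signal over background was not analysed.

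A group-means model of 10 groups (line by treatment) was fitted to all 28 human arrays with limma 3.58.1 in R 4.3.3 (18 residual degrees of freedom, eBayes). It was tested on simulated data with known changes. Genes named are AHR, HGF and MET, the 12 largest differences each way among called genes whose SF295 arrays do not overlap the others, up to 5 called genes of each list by size of difference, and the 5 of smallest p for the treatment comparisons; names of pseudogenes, uncharacterised loci and olfactory receptors were passed over. Arrays were assigned to SF295 by title alone; the choice of this line and of the gene lists was made with earlier results of these data known. Same-numbered arrays of different groups did not deviate together (mean r 0.008 over 118 pairs, 41 of them over 0.1, against -0.002 for other numbers), so the numbers were not taken as pairs. Alternatives left out each array, the arrays with disagreeing labels, the narrow arrays, a treatment or a line, and changed the normalization, the filter, the probe-set rule and the variance model.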

Additional observations from a re-analysis of the deposited data

Results flagged for a closer look

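NT5E and TCEAL2 stood out because the difference between SF295 and the other lines itself differed between treatments. For NT5E the change was 1.06 (SE 0.18, limma adjusted p = 0.0367), from -1.46 on vehicle to -0.40 on V-4084 arrays. For TCEAL2 it was -0.99 (SE 0.18, limma adjusted p = 0.0367), from 0.51 to -0.48. Without the line U87M2 neither passed, at an adjusted p of 0.262 each.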

How the results depend on the processing

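Across 41 alternatives, of which 28 leave out an array, the number of genes called between SF295 and the other lines stayed within 1.5 times of 6423, and leaving out an array gave 5153 (without vehicle replicate 1 of SF295) to 7237. The number separating SF295 from each line singly ran from 990 to 1566 without an array and was 742 on vehicle arrays alone. The number of genes whose line difference changed with V-4084 depended on the arrays: 0 to 3159 without an array (3159 without V-4084 replicate 1 of SF295, and 0 without 12 of the 28 arrays), 0 with the replicate block or without U87M2, 927 without the 3 arrays with disagreeing labels, 5 without the 3 narrow arrays, 103 without DBM2, 42 without U251M2, 27 after quantile normalization and 6 with a trended, robust variance. For V-4084 against vehicle in SF295 it ran from 0 to 1918 without an array, and was 2 without the arrays with disagreeing labels, 3 without DBM2 and 0 with the replicate block. The replicate block gave 6260 genes for the line difference, and same-numbered arrays did not pair. Of 209 results for single genes, 166 kept their side of the threshold under every alternative run. LDHA and CD68 reversed without U251M2 (-0.02 and -0.04), HMGCS1 and CD14 on vehicle arrays alone (-0.07 and 0.16). Further calls between SF295 and the other lines that were lost under at least 1 alternative were those of ACTA2, CDK1, CDK6, CNN1, COL3A1, DSG1, DSP, EMCN, FDPS, FLT1, HOXB8, HOXD10, LPL, MSR1, NOTCH3, PLAU, PLXNB1, PPARG, PRX, RETN, RRM1, SPINT1, SQLE, TM7SF2, TTN, TYMS and VEGFA, and for changes with V-4084 those of NT5E and TCEAL2, which were also lost under the replicate block (adjusted p = 0.0583 each). Causes were not tested. With 2 arrays per treatment, SF295 has the least support of the 5 lines, and genes under the dim level of 6.41 may lie near background.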
